A study of Homo sapiens with 6 samples.

Results

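Notch signalling passes between touching cells. Ligands of the Jagged and Delta families on a neighbour bind a Notch receptor, the receptor is cut by an ADAM protease and then by gamma-secretase, and the freed intracellular part joins the DNA-binding protein RBPJ and a Mastermind coactivator in the nucleus. Genes of the HES and HEY families, which encode helix-loop-helix repressors, and NRARP, which encodes a feedback inhibitor of the complex, are among its best known targets. In squamous epithelia the pathway is known for driving differentiation, and NOTCH1 is often inactivated in squamous carcinomas.

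The 10 genes described here are 3 receptors (NOTCH1, NOTCH2, NOTCH3), 3 ligands (JAG1, JAG2, DLL1) and 4 targets (HES1, HEY1, HES4, NRARP), taken by symbol from a table of 61487 gene IDs. All 10 symbols were found and passed the filter on low counts, which left 16591 genes for testing. The cells were H2170, an established line of human lung squamous cell carcinoma, with 2 libraries in each of 3 groups. IDRmut cells expressed a GFP fusion of ACK1, the tyrosine kinase encoded by TNK2, carrying a change the labels call IDRmut and do not spell out. WT cells expressed wild-type ACK1 fused to GFP, and Control cells expressed GFP alone, so that every group carried a GFP construct. By its title and design text the study asked which genes ACK1 condensates regulate. The promoter of the constructs is not named in the labels, and neither is whether the libraries of a group came from separate cultures or clones. The spread that the p-values rest on may therefore be technical. In such bulk samples, fewer cells that use a gene and less of its RNA per cell cannot be told apart.

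Library totals ran from 19128111 to 33540998 counts, and the 10 genes together held between 0.0598% and 0.0704% of each library. TNK2 stood at 1762 and 1455 CPM (the library-size-scaled count, with TMM-adjusted library sizes) in IDRmut, 3514 and 3613 in WT, and 41.1 and 43.1 in Control, as the labels have it. TNK2 was therefore also lower in IDRmut than in WT, by 1.15 on the log2 scale, and what follows from the altered protein and from its lower transcript level cannot be told apart in any difference between those arms. Of 8 markers of squamous lung cells, 7 reached 1 CPM in every library, summing to 1859 and 1731 CPM in IDRmut, 1313 and 1272 in WT, and 2628 and 2594 in Control. Most of that sum was KRT14 and S100A2, which fell in both arms, by 0.60 and 1.03 in IDRmut and by 1.20 each in WT on the log2 scale. In IDRmut, KRT6A (1.76), KRT5 (1.07), TP63 (0.47) and DSG3 (0.36) rose and SOX2 fell by 0.21, while in WT KRT6A (0.66) and TP63 (0.19) rose and KRT5 and SOX2 fell by 0.71 and 0.53. Lists of 5 adenocarcinoma and alveolar markers and 5 immune markers summed to under 1 CPM in every library, and 5 neuroendocrine markers to between 0.807 and 1.35 CPM. Endothelial markers summed to 102 and 99.2 CPM in IDRmut, 51.0 and 53.0 in WT, and 219 and 226 in Control, most of it CDH5, and the sum of 5 fibroblast markers, between 668 and 912 CPM, was mostly COL1A2. The part of these shifts in the results below was not tested.

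The sequences before HES1 and HES4 are shown because both genes rose in both ACK1 arms, and the one before NRARP because it rose in IDRmut and not detectably in WT. They are the 250 bases upstream of the RefSeq start (build GRCh38.p14), written 5′ to 3′ on the gene's strand, with matches to the RBPJ motif GTGNGAA on either strand in capitals. The gene bounds of GENCODE 29, used elsewhere here, put the start of HES4 inside its window, so part of that window may be transcribed. That start, at 1000172, falls within the first of the marked HES4 matches, and the second lies inside the gene by those bounds. The HES1 start by the same bounds, at 194136145, lies at the downstream end of its window, after both matches.
HES1 (chr3:194135898-194136147, plus strand): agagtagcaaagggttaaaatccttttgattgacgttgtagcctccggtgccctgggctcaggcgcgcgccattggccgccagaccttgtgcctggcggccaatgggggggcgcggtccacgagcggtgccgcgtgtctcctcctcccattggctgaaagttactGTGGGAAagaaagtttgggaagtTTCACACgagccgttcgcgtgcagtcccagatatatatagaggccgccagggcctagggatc
HES4 (chr1:1000098-1000347, minus strand): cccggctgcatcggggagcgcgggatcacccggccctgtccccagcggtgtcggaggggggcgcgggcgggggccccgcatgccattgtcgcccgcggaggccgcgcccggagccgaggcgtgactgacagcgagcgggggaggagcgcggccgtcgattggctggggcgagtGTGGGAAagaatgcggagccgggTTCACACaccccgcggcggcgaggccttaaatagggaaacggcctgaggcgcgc
NRARP (chr9:137302272-137302521, minus strand): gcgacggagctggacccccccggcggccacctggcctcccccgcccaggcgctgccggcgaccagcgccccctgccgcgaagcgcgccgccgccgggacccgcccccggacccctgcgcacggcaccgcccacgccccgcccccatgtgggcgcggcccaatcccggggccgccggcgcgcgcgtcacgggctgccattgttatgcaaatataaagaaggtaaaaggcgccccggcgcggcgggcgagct

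HES1 and HES4 each held 2 matches, facing each other with 16 bases between them. In HES1 they lay 85 to 79 and 62 to 56 bases before the start, and in HES4 77 to 71 and 54 to 48 bases before it. Windows were given for 8 of the 10 genes, DLL1 and HEY1 being the others, and the remaining 6 windows held no match. The motif occurred in 11.6% of 35114 promoter windows of the same length. The facing pair at that spacing, looked for after it was seen in these genes, occurred in 3 of them (0.00854%), those of HES1, HES4 and ITIH4. None of the 8 windows held the STAT motif TTCNNNGAA, found in 6.57% of windows, or the interferon-stimulated response element (ISRE), found in 3.02%. A match describes the letters and is not a measured binding site, and the absence of one says nothing about the factor.

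**Figure D1:**
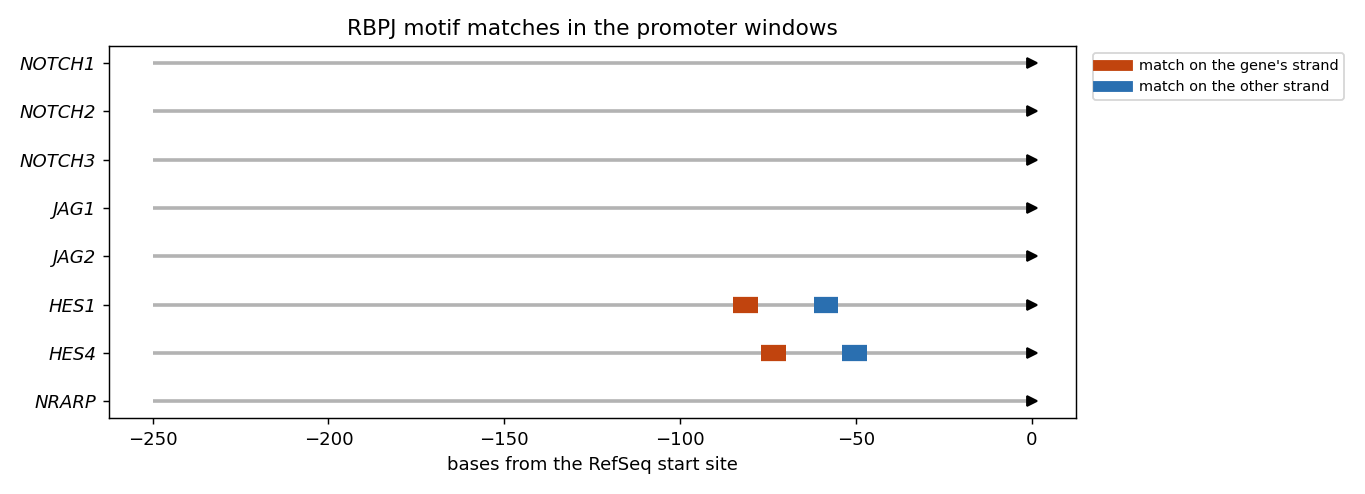
Position of RBPJ motif matches (coloured blocks, by strand) in the 250 bases before the RefSeq start site (arrowhead, x axis in bases) of the 8 genes with a window. HES1 and HES4 each carry 2 facing matches, and the other 6 genes carry none.

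Per kb of exon, JAG1 was the most abundant of the 10 transcripts in every group and NOTCH2 the next. JAG1 stood at 21.5 ± 0.539 CPM per kb in IDRmut, 28.3 ± 0.558 in WT and 33.2 ± 0.152 in Control, and NOTCH2 at 17.4 ± 0.467, 18.5 ± 0.153 and 17.3 ± 0.170 CPM per kb in the same groups (SD, n = 2). HES1, NOTCH1, HES4, HEY1, NRARP and JAG2 followed in that order in all 3 groups, from 12.7 CPM per kb for HES1 down to 1.25 for JAG2 in IDRmut, and from 9.86 down to 0.989 in Control. DLL1 and NOTCH3 were far lower, at 0.130 and 0.0932 CPM per kb in IDRmut and 0.0972 and 0.0305 in Control. Libraries of neighbours in this order did not overlap, except for DLL1 with NOTCH3 in IDRmut and HEY1 with NRARP in Control. The order also rests on the exon length taken for each gene. That length is the same in every library, so an error in it would not show as overlap. NOTCH3 passed the filter only through IDRmut and DLL1 only through WT, so a difference in them is partly a consequence of passing, and counts over the 8 genes above the minimum in every group are given too.

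**Figure D2:**
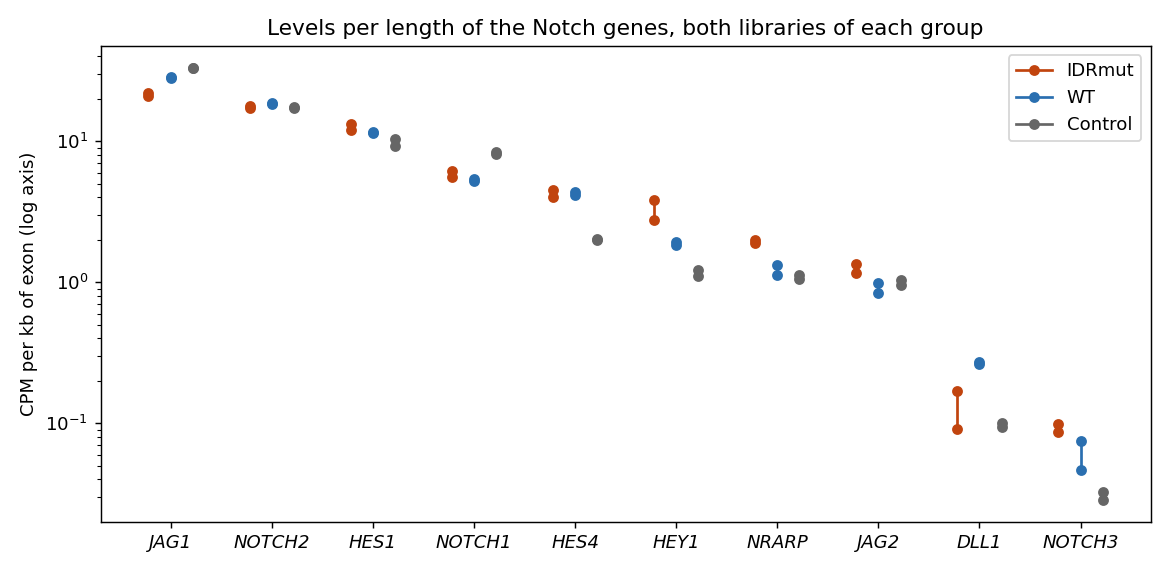
CPM per kb of merged exon (y axis, log scale) of the 10 genes in both libraries of IDRmut, WT and Control (points, joined within a group). The genes span from JAG1, at 33.2 CPM per kb in Control, to NOTCH3, at 0.0305.

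Compared with Control, IDRmut cells had less NOTCH1 and JAG1 and more NOTCH3, HES1, HEY1, HES4 and NRARP transcript. WT cells also had less NOTCH1 and JAG1 than Control, and more NOTCH2, DLL1, HES1, HEY1 and HES4. Among these rises, NOTCH2 (0.10 on the log2 scale), HES1 (0.24) and DLL1 in WT were not called with DESeq2. Nor were NOTCH3 and NRARP in IDRmut. The rises of NOTCH3 and DLL1 are partly a consequence of passing the low-count filter, each through the group where it was higher. Set against WT, IDRmut had more JAG2, HEY1 and NRARP and less JAG1. By edgeR's quasi-likelihood test at an adjusted p under 0.05, 5 of the 10 genes rose and 2 fell, against 15.6% and 15.9% of all 16591 genes (31.6% in either direction). Over the 8 genes above the minimum in every group, 4 rose and 2 fell, with a median log2 fold change of 0.35 against 0.0040 for all genes. In WT against Control the counts were likewise 5 higher and 2 lower of 10, and 4 and 2 of 8, beside 17.4% and 17.6% of all genes (35.0% in either direction), with a median of 0.12 over the 8. The WT count of 7 was 4 without WT replicate 2 and 3 without Control replicate 2. Between IDRmut and WT, 3 of 10 were higher and 1 was lower in IDRmut, beside 12.3% and 14.2% of all genes (26.5% in either direction), and the counts over the 8 were also 3 and 1, with a median of 0.13. The libraries of the groups did not overlap for 8 of the 10 genes (7 of the 8) in IDRmut against Control, 8 (6 of the 8) in WT against Control and 9 (7 of the 8) in IDRmut against WT, beside 63.3%, 69.2% and 61.5% of all genes. Both arms were set against the same 2 Control libraries, so their values are given side by side and not as independent repeats.

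**Figure D3:**
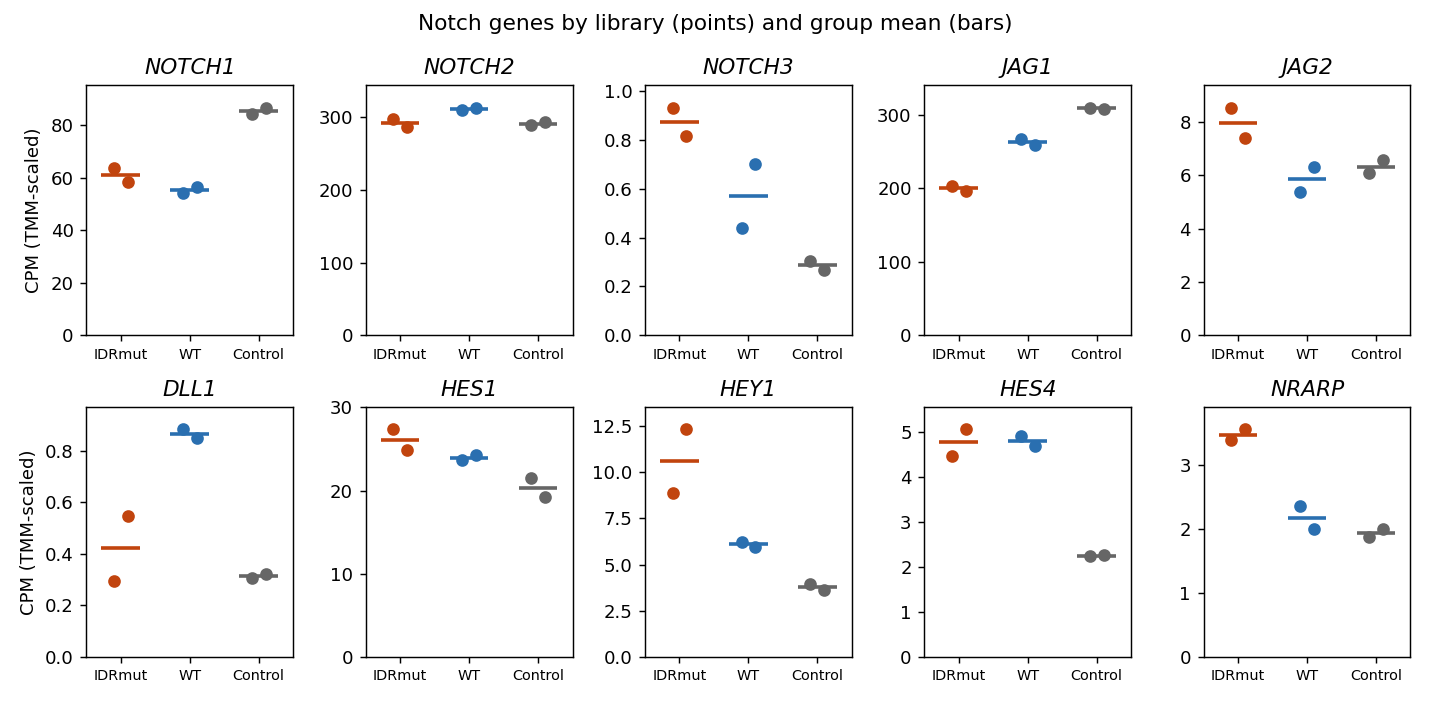
CPM (y axis, from 0, own scale per panel) of the 10 genes in each library of IDRmut, WT and Control (points) with group means (bars). JAG1 steps up through IDRmut (203 and 196 CPM), WT (266 and 259) and Control (309 and 307), HEY1 steps down in that order, and HES4 lies at one level in both ACK1 arms.

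Of the receptors, NOTCH1 fell in both arms. NOTCH1 (ENSG00000148400, chromosome 9 from 136494433 to 136545786 on the GRCh38 minus strand) had 63.9 and 58.3 CPM in IDRmut, 54.2 and 56.4 in WT, and 84.2 and 86.8 in Control. Every ACK1 library lay below both Control libraries. Its log2 fold change was -0.49 ± 0.05 (SE) in IDRmut (edgeR adjusted p 1.9e-06) and -0.62 ± 0.05 in WT (edgeR adjusted p 5.5e-08). IDRmut stood 0.14 ± 0.05 above WT (95% interval 0.03 to 0.25), with an edgeR adjusted p of 0.067, which was 0.0029 with an offset for GC content and length and 0.0056 without IDRmut replicate 2.

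NOTCH2 (ENSG00000134250, chromosome 1 from 119911553 to 120069626, minus strand), the most abundant receptor, had 298 and 287 CPM in IDRmut, 310 and 313 in WT, and 289 and 293 in Control. The IDRmut libraries lay on either side of the Control libraries, and the WT libraries lay just above all others. The rise in WT was 0.10 ± 0.04 on the log2 scale with an edgeR adjusted p of 0.046, and it passed neither with a replicate block (edgeR adjusted p 0.078), without the low-count filter (0.055), with DESeq2 (0.12), nor when any library of WT or Control was left out (between 0.13 and 0.26). For IDRmut against WT, -0.09 ± 0.04 had an edgeR adjusted p of 0.073, and was called with the GC and length offset (0.025) and without IDRmut replicate 1 (0.010). NOTCH2 has near-identical partial copies, of which NOTCH2NLC held between 72 and 154 counts per library and NOTCH2NLA, NOTCH2NLB and NOTCH2NLR at most 14, and how reads with several matches were assigned is not given in the sources used here.

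NOTCH3 (ENSG00000074181, chromosome 19 from 15159038 to 15200981, minus strand) was scarce and passed the low-count filter only through IDRmut. A rise there is partly a consequence of passing. It had 19 and 18 counts in IDRmut, 9 and 24 in WT, and 6 and 5 in Control, or 0.933 and 0.819, 0.441 and 0.702, and 0.304 and 0.269 CPM in the same order. The log2 fold change of 1.59 ± 0.44 in IDRmut passed by edgeR (adjusted p 0.010), against 0.11 with DESeq2 and 0.059 and 0.071 without Control replicate 1 or 2. In WT it was 1.05 ± 0.46, with an edgeR adjusted p of 0.085, and 0.61 without WT replicate 2. The IDRmut to WT difference of 0.54 had a 95% interval from -0.18 to 1.25, and ran from 0.31 without WT replicate 1 to 0.98 without WT replicate 2.

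Among the ligands, JAG1 fell in both arms, and further in IDRmut. JAG1 (ENSG00000101384, chromosome 20 from 10637684 to 10673999, minus strand; 0.85% of its exon bases are overlapped by another gene) had 203 and 196 CPM in IDRmut, 266 and 259 in WT, and 309 and 307 in Control. No library of one group reached into another. The log2 fold change was -0.63 ± 0.04 in IDRmut (edgeR adjusted p 1.5e-09) and -0.23 ± 0.04 in WT (edgeR adjusted p 8.1e-05). The difference between the arms, -0.39 ± 0.04, had an edgeR adjusted p of 5.1e-07 and stayed between -0.41 and -0.37 with each library left out in turn.

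JAG2, the other Jagged ligand, went the other way between the arms. JAG2 (ENSG00000184916, chromosome 14 from 105140981 to 105168824, minus strand; 7.33% of exon bases overlapped) had 8.54 and 7.41 CPM in IDRmut, 5.39 and 6.32 in WT, and 6.09 and 6.56 in Control. It was higher in IDRmut than in WT by 0.42 ± 0.12 (edgeR adjusted p 0.016), a call lost with DESeq2 (adjusted p 0.12) and without IDRmut replicate 1 (0.10) or WT replicate 1 (0.12). Against Control, IDRmut stood at 0.33 ± 0.13 with an edgeR adjusted p of 0.059, which passed with upper-quartile scaling (0.038), with the GC and length offset (0.018) and without IDRmut replicate 2 (0.027). In WT the value was -0.09 ± 0.13.

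DLL1 (ENSG00000198719, chromosome 6 from 170282206 to 170306565, minus strand), a Delta ligand, had 6 and 12 counts in IDRmut, 18 and 29 in WT, and 6 in each Control library. These are 0.295 and 0.546 CPM in IDRmut, 0.882 and 0.848 in WT, and 0.304 and 0.323 in Control. The WT libraries lay above the other 4. DLL1 passed the low-count filter only through WT, so a rise there is partly a consequence of passing. The rise in WT, 1.44 ± 0.41 on the log2 scale, had an edgeR adjusted p of 0.012, against 0.15 with DESeq2 and 0.055, 0.083 and 0.064 without WT replicate 2, Control replicate 1 or Control replicate 2. IDRmut stood -1.01 ± 0.37 from WT with an edgeR adjusted p of 0.056, or 0.036 without IDRmut replicate 2.

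**Figure D4:**
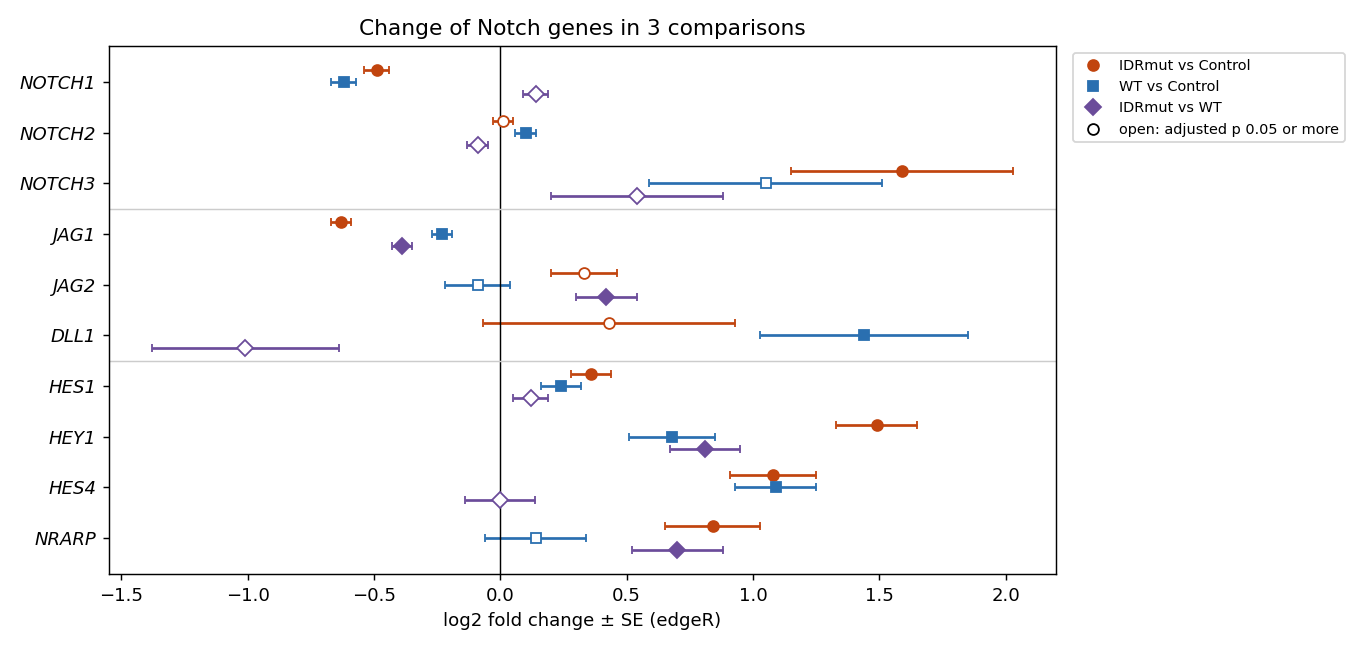
Log2 fold change with SE (x axis) of the 10 genes in IDRmut vs Control, WT vs Control and IDRmut vs WT, with open symbols at an adjusted p of 0.05 or more. NOTCH1 and JAG1 lie left of 0 in both arms, and HES1, HEY1 and HES4 right of it.

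By edgeR all 4 targets rose in IDRmut, beside 15.6% of all genes. HES1, HEY1 and HES4 also rose in WT, beside 17.4% of all genes. Of these rises, DESeq2 did not call NRARP in IDRmut or HES1 in WT. HEY1 (ENSG00000164683, chromosome 8 from 79764010 to 79767863, minus strand), a repressor of the Hairy family, changed most of the 4 targets in IDRmut. It had 8.89 and 12.3 CPM in IDRmut, 6.22 and 5.97 in WT, and 3.96 and 3.60 in Control. The groups did not overlap, and the 2 IDRmut libraries, with 181 and 271 counts, lay further apart than those of the other groups. Its log2 fold change was 1.49 ± 0.16 in IDRmut (edgeR adjusted p 1.6e-06) and 0.68 ± 0.17 in WT (edgeR adjusted p 0.0048, or 0.064 without Control replicate 2). IDRmut exceeded WT by 0.81 ± 0.14 (edgeR adjusted p 2.5e-04), a value between 0.55 and 1.03 with each library left out in turn.

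HES4 (ENSG00000188290, chromosome 1 from 998962 to 1000172, minus strand) had 4.47 and 5.05 CPM in IDRmut, 4.90 and 4.68 in WT, and 2.23 and 2.26 in Control. The libraries of both arms intermingled above Control. The rise was 2.12-fold in each arm, with log2 fold changes of 1.08 ± 0.17 in IDRmut (edgeR adjusted p 9.2e-05) and 1.09 ± 0.16 in WT (edgeR adjusted p 5.1e-05). The difference between the arms was -0.0008, with a 95% interval from -0.29 to 0.29 on the log2 scale.

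HES1 (ENSG00000114315, chromosome 3 from 194136145 to 194138732, plus strand), the most abundant of the targets, had 27.3 and 24.9 CPM in IDRmut, 23.7 and 24.2 in WT, and 21.5 and 19.2 in Control. Both arms lay above Control by a small margin. The log2 fold change was 0.36 ± 0.08 in IDRmut (edgeR adjusted p 0.0021), or 0.051 for that p without Control replicate 2. In WT it was 0.24 ± 0.08 with an edgeR adjusted p of 0.024, which became 0.13 with DESeq2 and 0.060, 0.14 and 0.24 without WT replicate 1, WT replicate 2 or Control replicate 2. The arms differed by 0.12 (95% interval -0.03 to 0.27). HES1 and HES4, whose promoter windows hold the same facing pair, thus had log2 fold changes of 0.36 and 1.08 in IDRmut, a difference between genes that was not tested.

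NRARP (ENSG00000198435, chromosome 9 from 137300482 to 137302251, minus strand) had 3.39 and 3.55 CPM in IDRmut, 2.35 and 1.99 in WT, and 1.88 and 1.99 in Control. The IDRmut libraries lay above the other 4, and those of WT and Control overlapped. It rose by 0.84 ± 0.19 in IDRmut (edgeR adjusted p 0.0028, DESeq2 adjusted p 0.052), and was 0.14 ± 0.20 in WT, with a 95% interval from -0.29 to 0.57. IDRmut exceeded WT by 0.70 ± 0.18 with an edgeR adjusted p of 0.0067, against 0.11 with DESeq2 and 0.12 without WT replicate 2.

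The genes whose libraries followed HEY1 most closely, among 10907 others with a mean of at least 5 CPM, were HSPA12A, MTHFD2 and SGPL1, with Pearson correlations of log2 CPM of 0.9975, 0.9956 and 0.9934 over the 6 libraries. Their log2 fold changes were smaller than those of HEY1, at 0.34, 0.26 and 0.23 in IDRmut and 0.16, 0.14 and 0.12 in WT. The 6 libraries share 3 group means, so such correlations reflect the order and relative spacing of the groups, along with differences between libraries of a group.

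Some of the 10 genes lie close to others. ISG15, a ubiquitin-like protein induced by interferon, lies on the opposite strand 966 bases from HES4 and averaged 19.4 CPM in IDRmut, 36.6 in WT and 4.39 in Control. ISG15 rose by 2.14 in IDRmut and 3.06 in WT on the log2 scale, and was lower in IDRmut than in WT by -0.92 (edgeR adjusted p 3.8e-08), where HES4 had -0.0008. No exon base of HES4 is overlapped by another gene, and the part of ISG15 in the HES4 values was not tested. SLX4IP, on the opposite strand 0.855 kb from JAG1, had log2 fold changes of -0.32 in IDRmut and -0.31 in WT (edgeR adjusted p 0.063 and 0.054). NUDT14 and EXD3, 4.11 kb from JAG2 and 4.64 kb from NRARP, passed in no comparison. TOR4A, on the other side of NRARP at 17.8 kb, rose by 0.70 in WT and had 0.0018 in IDRmut on the log2 scale, where NRARP had 0.14 and 0.84. SEC16A, 10.7 kb from NOTCH1, fell by 0.14 in both arms (edgeR adjusted p 0.017 in IDRmut and 0.011 in WT). PLEKHN1, 23.1 kb from HES4, rose by 1.30 in IDRmut and 2.62 in WT (edgeR adjusted p 0.043 and 3.0e-05), with group means between 0.318 and 1.98 CPM.

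Of 79 other genes of the pathway, 63 passed the filter. In IDRmut against Control 6 rose and 18 fell (38.1% called, beside 31.6% of all genes). The WT arm had 10 higher and 20 lower than Control (47.6%, beside 35.0%). Between IDRmut and WT, 13 were higher and 12 lower in IDRmut (39.7%, beside 26.5%). The direction of calls against Control moved with the scaling: with upper-quartile scaling 8 rose and 12 fell in IDRmut, and 14 rose and 15 fell in WT. With TMM, medians were -0.04, -0.05 and -0.02 on the log2 scale, against 0.0040, 0.0017 and -0.0007 for all genes. Upper-quartile scaling moved the median of all genes against Control to 0.035 in IDRmut and 0.034 in WT. Without Control replicate 1 the IDRmut count of 24 was 15 and the WT count of 30 was 19, which was also 19 without Control replicate 2. The count of 25 between the arms was 16 without WT replicate 1 and 15 without WT replicate 2.

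**Figure D5:**
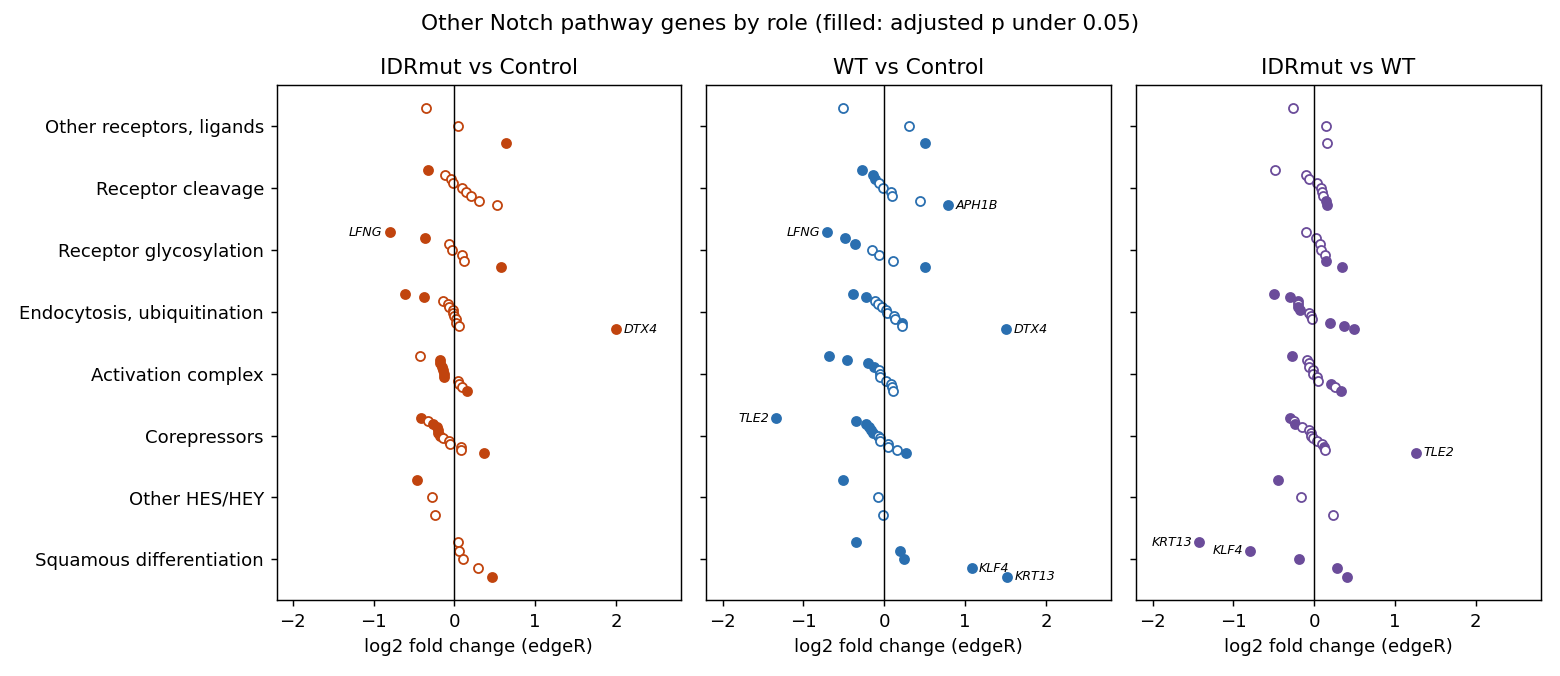
Log2 fold change (x axis) of the 63 other pathway genes tested, by role (rows), in IDRmut vs Control, WT vs Control and IDRmut vs WT, filled at an adjusted p under 0.05. Most points lie near 0, with DTX4 at 2.00 in IDRmut and 1.51 in WT and TLE2 at -1.34 in WT.

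Other receptors and ligands were scarce. NOTCH4 averaged 0.611 CPM in IDRmut, 0.557 in WT and 0.790 in Control and passed in no comparison, as did the ligand DLL3 at 2.87, 3.45 and 2.76 CPM. DLK2, a non-canonical ligand, rose in both arms, by 0.64 ± 0.19 in IDRmut and 0.50 ± 0.18 in WT (edgeR adjusted p 0.015 and 0.043). DLL4 and DLK1 did not pass the filter.

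Of 9 genes of receptor cleavage, 1 fell and none rose in IDRmut, while WT had 1 higher and 3 lower. These are 11.1% and 44.4% called, beside 31.6% and 35.0% of all genes, and with upper-quartile scaling 1 rose and 1 fell in IDRmut, and 2 rose and 1 fell in WT. FURIN, the convertase that first cuts Notch receptors, fell by 0.33 in IDRmut and by 0.27 in WT on the log2 scale (edgeR adjusted p 7.8e-05 and 3.7e-04). APH1B, a gamma-secretase subunit, rose by 0.79 ± 0.20 in WT (edgeR adjusted p 0.0049) and had 0.31 in IDRmut, while its paralogue APH1A had -0.14 in WT (edgeR adjusted p 0.021, or 0.069 with upper-quartile scaling). ADAM17, a sheddase, was higher in IDRmut than in WT by 0.16 (edgeR adjusted p 0.014).

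Glycosylation of the receptors tunes which ligand they answer to. LFNG, the Lunatic fringe glycosyltransferase that modifies Notch EGF repeats, had 27.4 and 27.6 CPM in IDRmut, 28.6 and 30.0 in WT, and 46.8 and 49.2 in Control. All 4 ACK1 libraries lay below Control, with log2 fold changes of -0.80 ± 0.06 in IDRmut (edgeR adjusted p 2.6e-08) and -0.71 ± 0.06 in WT (edgeR adjusted p 4.9e-08). The xylosyltransferase XXYLT1 fell too, by 0.36 in IDRmut and 0.49 in WT, and GXYLT2, another xylosyltransferase, rose by 0.58 and 0.51. POGLUT1, which adds glucose to Notch, fell by 0.36 in WT and was higher in IDRmut than in WT by 0.34 (edgeR adjusted p 0.0018). Of 7 tested genes of this group 1 rose and 2 fell in IDRmut, and 1 rose and 3 fell in WT, or 42.9% and 57.1% called, beside 31.6% and 35.0% of all genes. With upper-quartile scaling 2 rose and 2 fell in IDRmut.

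DTX4, a Deltex family ubiquitin ligase, rose most of the 63 in IDRmut, and in WT came just after KRT13. It had 10.2 and 9.64 CPM in IDRmut, 7.35 and 6.90 in WT, and 2.38 and 2.58 in Control, with no overlap between groups. The log2 fold change was 2.00 ± 0.14 in IDRmut (edgeR adjusted p 8.1e-09) and 1.51 ± 0.14 in WT (edgeR adjusted p 2.5e-07), and IDRmut exceeded WT by 0.49 (edgeR adjusted p 0.0022). The ligand-directed ubiquitin ligases NEURL1 and NEURL1B fell in IDRmut, by 0.61 and 0.38, and were lower there than in WT, by -0.50 and -0.30 (edgeR adjusted p 0.0055 and 0.0013). MIB2, a Mind bomb ligase, fell by 0.39 in WT and was higher in IDRmut than in WT by 0.37 (edgeR adjusted p 0.0019). Of 12 tested genes of endocytosis and ubiquitination, 1 rose and 2 fell in IDRmut, and 2 rose and 2 fell with wild-type ACK1. At 25.0% and 33.3% called, these shares against Control are no higher than the 31.6% and 35.0% of all genes. In IDRmut against WT, 3 of the 12 were higher and 5 lower (66.7% called, beside 26.5% of all genes).

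Of 11 tested genes of the nuclear activation complex, 1 rose and 6 fell in IDRmut (63.6% called, beside 31.6% of all genes), and 4 fell and none rose in WT (36.4%, beside 35.0%). With upper-quartile scaling 1 rose and 1 fell in IDRmut, and 1 rose and 3 fell in WT. RBPJ averaged 136 ± 8.84 CPM in IDRmut, 131 ± 1.82 in WT and 151 ± 3.00 in Control (SD, n = 2), with log2 fold changes of -0.15 in IDRmut and -0.20 in WT (edgeR adjusted p 0.023 and 0.0024), the first not called with upper-quartile scaling (0.073). MAML2, a Mastermind coactivator, fell by 0.46 in WT, had -0.13 in IDRmut (edgeR adjusted p 0.025, or 0.089 with upper-quartile scaling) and was higher in IDRmut than in WT by 0.33 ± 0.04 (edgeR adjusted p 1.3e-05). Of the acetyltransferases, KAT2A was higher in IDRmut than in WT by 0.21 and KAT2B lower by -0.27 (edgeR adjusted p 0.0020 and 0.0022).

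Of 13 corepressors, 1 rose and 6 fell in each arm (53.8% called, beside 31.6% of all genes in IDRmut and 35.0% in WT), and with upper-quartile scaling 1 rose and 5 fell in IDRmut, and 2 rose and 5 fell in WT. TLE2, a Groucho family corepressor that HES proteins recruit, had 14.9 and 14.6 CPM in IDRmut, 5.78 and 6.38 in WT, and 15.8 and 15.2 in Control. The WT libraries alone were low, with a log2 fold change of -1.34 ± 0.10 against Control (edgeR adjusted p 9.6e-09) and IDRmut 1.26 ± 0.10 above WT (edgeR adjusted p 4.1e-08). In IDRmut against Control TLE2 had -0.07 ± 0.09 (edgeR adjusted p 0.58). Its paralogue TLE3 rose in both arms, by 0.37 in IDRmut and 0.27 in WT. HDAC1, a histone deacetylase, was lower in IDRmut than in WT by -0.24 (edgeR adjusted p 1.1e-04).

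Of 7 other HES and HEY genes, HES2, HES6 and HEY2 passed the filter. In each arm 1 of these 3 fell and none rose against Control (33.3% called). Of all genes, 31.6% were called in IDRmut and 35.0% in WT, with 15.6% and 17.4% called higher. HES2 fell by 0.46 in IDRmut and was lower there than in WT, by -0.45 (edgeR adjusted p 0.017 and 0.016). HEY2 had -0.51 in WT (edgeR adjusted p 0.042, or 0.057 with upper-quartile scaling), and HES6 had -0.24 in IDRmut and -0.08 in WT. HES3 and HEYL had no count in any library, which allows up to 3 counts in each.

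Of 12 squamous differentiation genes linked to Notch in keratinocytes, 5 passed the filter, and KRT1, IVL, SPRR1A and SPRR1B had no count in any library. KRT13, a keratin of stratified mucosa, had 20.1 and 17.0 CPM in IDRmut, 50.7 and 48.1 in WT, and 16.8 and 17.5 in Control. It rose by 1.52 ± 0.08 in WT (edgeR adjusted p 7.7e-11), had 0.11 ± 0.09 in IDRmut, and was lower in IDRmut than in WT by -1.42 ± 0.07 (edgeR adjusted p 3.4e-10). KLF4, a transcription factor of epithelial differentiation, rose by 1.08 ± 0.17 in WT and stood -0.79 from WT in IDRmut (edgeR adjusted p 6.9e-05 and 0.0010). KRT10 rose by 0.25 in WT and was lower in IDRmut than in WT by -0.19, while TP63, the basal regulator, rose by 0.47 in IDRmut and 0.19 in WT and was higher in IDRmut than in WT by 0.28. TP63 also belongs to the squamous marker list, in which KRT14 and S100A2 fell in both arms and KRT6A rose in both, while KRT5 rose in IDRmut and fell in WT. Against Control, 1 of the 5, the basal regulator TP63, rose in IDRmut and none fell. KRT10, KRT4, KRT13 and KLF4 were not called there. In WT all 5 passed, 4 of them higher, TP63 included, and KRT4 lower, by 0.35. KRT4, a mucosal keratin, was higher in IDRmut than in WT by 0.40 (edgeR adjusted p 0.0085). These are 20.0% and 100% of 5 genes called, beside 31.6% and 35.0% of all genes.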

How the data were processed

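Polyadenylated RNA of 6 libraries was captured on poly-T beads, converted with random hexamers and amplified into DNA nanoballs for sequencing, per the labels' protocols. The authors deposited raw counts per gene, not normalized. HISAT2 2.2.1, SAMtools 1.14, featureCounts 2.0.1 and GRCh38 are named in the submitters' processing notes. The gene annotation, strandedness and treatment of multi-mapped reads were not given in the sources used here, so reads of overlapping genes cannot be separated. Gene names were matched for 61369 IDs in a current table and for 105 more in GENCODE 29, which also gave positions and exon lengths and may not be the authors' release.

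Genes were kept by filterByExpr (minimum count 10, minimum total 15), libraries were scaled with TMM, and group means were fitted to the 6 libraries together in edgeR 4.0.16 (R 4.3.3). Each contrast had a quasi-likelihood test in edgeR, and p-values over 16591 genes were adjusted by Benjamini-Hochberg, with a threshold of 0.05. SE is the log2 fold change divided by the root of the F statistic, and 95% intervals use it unadjusted. The limit that a count of 0 allows covers counting error only, since PCR reads are not independent molecules. The libraries of a group were distinct: their chi-square per gene was 3.65 in IDRmut, 1.55 in WT and 1.68 in Control. A trial on simulated data covered the test of WT against Control only, not the IDRmut comparisons. Its outcome is not given here, and no result rests on it.

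Named genes are the 10 genes, TNK2, up to 4 genes per pathway group with the smallest adjusted p in any comparison, the NOTCH2 copies, the nearest tested coding genes and the genes most like HEY1. KRT1, IVL, SPRR1A, SPRR1B, HES3, HEYL, KRT4, KRT5, KRT6A, KRT14, S100A2, DSG3, SOX2, DLL4, DLK1, ITIH4 and the other marker genes CDH5 and COL1A2 were named after their values were seen. A gene that this rule names is not reported here. The 10 genes and all lists were chosen with earlier results of these data known. Promoter windows came from RefSeq. Alternatives were RLE and upper-quartile scaling, DESeq2 1.42.0, no filter on low counts, only the 2 groups compared, a replicate block, an offset for GC content and length in 20 bins, both together, and each library left out.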

Additional observations from a re-analysis of the deposited data

Results flagged for a closer look

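Several genes are listed because IDRmut and WT differed in the test of the difference itself, by edgeR's quasi-likelihood test. Values are log2 differences, IDRmut minus WT. Among the 10 genes these were JAG1 at -0.39, JAG2 at 0.42, HEY1 at 0.81 and NRARP at 0.70. That is 40.0% called, beside 26.5% of all genes. Of the 63 other pathway genes tested, 39.7% were called. The 30 named ones were picked for the smallest adjusted p in any comparison, this one included, so a high share among them is built in. Of these 30, 16 were flagged. Higher in IDRmut were TLE2 at 1.26, DTX4 at 0.49, MIB2 at 0.37, POGLUT1 at 0.34, MAML2 at 0.33, TP63 at 0.28, KAT2A at 0.21 and ADAM17 at 0.16. Lower in IDRmut were KRT13 at -1.42, KLF4 at -0.79, NEURL1 at -0.50, HES2 at -0.45, NEURL1B at -0.30, KAT2B at -0.27, HDAC1 at -0.24 and KRT10 at -0.19. JAG1 fell in both arms, HEY1 and DTX4 rose in both, and TLE2 and KRT13 changed in WT with values near 0 in IDRmut. TNK2 itself was lower in IDRmut than in WT, and its part in these differences cannot be told apart from that of the altered protein.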

How the results depend on the processing

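RLE scaling changed no call of the 10 genes and no count beyond 1.5 times. Nor did a fit of only the 2 groups compared, in which DLL1 in IDRmut vs Control and NOTCH3 in WT vs Control gave no value, since they did not pass its filter. DESeq2 called fewer genes, 3290 in IDRmut vs Control, 3649 in WT vs Control and 2537 in IDRmut vs WT, and fewer of the pathway list, 15, 18 and 14. Of the 10 genes DESeq2 called 4 in WT vs Control and 2 in IDRmut vs WT. The log2 fold changes it no longer called were DLL1 1.46, HES1 0.24 and NOTCH2 0.10 in WT vs Control, NOTCH3 1.61 and NRARP 0.84 in IDRmut vs Control, and JAG2 0.44 and NRARP 0.69 in IDRmut vs WT. It gave no adjusted p for DLL1 and NOTCH3 in IDRmut vs WT. Without the low-count filter NOTCH2 in WT vs Control (0.10) was not called. Upper-quartile scaling called JAG2 in IDRmut vs Control (0.36) and moved the share of higher calls in the pathway list to 40.0%, against 25.0%, in IDRmut vs Control and to 48.3%, against 33.3%, in WT vs Control. The GC and length offset called that value too (0.36), as well as NOTCH1 (0.16) and NOTCH2 (-0.08) in IDRmut vs WT, and turned HES4 in IDRmut vs WT to 0.03. The cause was not tested.

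Replicate numbers were not taken to pair the libraries, since the deviations of same-numbered libraries correlated at -0.149 (IDRmut and WT), -0.142 (IDRmut and Control) and -0.012 (WT and Control) over 8295 genes. With the replicate block NOTCH2 in WT vs Control (0.10) was not called and HES4 in IDRmut vs WT was 0.0019, and all other calls of the 10 genes stood. With the replicate block and the GC and length offset together, JAG2 in IDRmut vs Control was 0.37, and NOTCH1, NOTCH2 and HES4 in IDRmut vs WT were 0.17, -0.08 and 0.04. A replicate block with the IDRmut numbers crossed, chosen after seeing the data, called 5478, 6028 and 4587 genes in IDRmut vs Control, WT vs Control and IDRmut vs WT.

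With each library left out in turn, log2 values in IDRmut vs Control ranged from -0.09 to 0.79 for DLL1, 0.28 to 0.44 for HES1, 0.23 to 0.43 for JAG2, -0.02 to 0.03 for NOTCH2 and 1.49 to 1.68 for NOTCH3. In WT vs Control they ranged from 1.40 to 1.48 for DLL1, 0.16 to 0.32 for HES1, 0.62 to 0.75 for HEY1 and 0.09 to 0.11 for NOTCH2. In IDRmut vs WT they ranged from -1.53 to -0.65 for DLL1, -0.09 to 0.09 for HES4, 0.32 to 0.56 for JAG2, 0.07 to 0.20 for NOTCH1, -0.11 to -0.06 for NOTCH2 and 0.56 to 0.80 for NRARP. NOTCH1, JAG1 and HES4 in both arms against Control, HEY1 and NRARP in IDRmut against Control, and JAG1 and HEY1 in IDRmut against WT kept their calls in every such fit. Counts of the 10 genes ranged from 3 to 7 in WT vs Control, those of the pathway list from 15 to 26 in IDRmut vs Control, 19 to 35 in WT vs Control and 15 to 28 in IDRmut vs WT, and those of all genes from 3399 to 5474 in IDRmut vs Control and 2561 to 4729 in IDRmut vs WT. With 1 library left in a group, its spread is assumed to be that of the others. Depth limits DLL1 and NOTCH3, which had at most 29 counts in any library.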
